A study of Homo sapiens with 179 samples.

Results

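The cytosolic ribosomal protein genes were taken as all symbols of the form RPL or RPS followed by a number, with RPLP0, RPLP1, RPLP2 and RPSA. This rule found 86 of 19084 genes, of which 53 carry names of the large (60S) subunit and 33 names of the small (40S) subunit. Among them, 9 are paralogs, second copies of another member, including RPL3L, RPL7L1, RPL10L, RPL22L1, RPL26L1, RPL36AL, RPL39L and RPS27L. The other 77, 46 of the 60S and 31 of the 40S subunit, are called core members here. FAU and GNB2L1 also encode ribosomal proteins but fall outside the rule by name. Processed pseudogenes of these genes are common in the human genome and 0 symbols of that form were in the table, so reads from such copies could have been assigned to a member.

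The cells were H1, a human embryonic stem cell line in wide use, grown on Matrigel, a basement membrane extract, in the defined medium E8. The TruSeq groups H1p43 and H1p16 held 3 libraries each, made with a commercial kit from polyadenylated RNA and sequenced with 12 samples in a lane. LM-Seq, which primes reverse transcription of oligo-dT selected, heat-fragmented RNA with random hexamers, gave 6 libraries in Lane 4, 24 in Lane 3, 48 in Lane 2 and 95 in Lane 1. What p43 and p16 stand for, and whether a library number that recurs in several LM-Seq lanes marks the same library, the sources used here do not say. The labels name no separate cultures for the replicates. The p-values therefore describe library-to-library spread that could be technical.

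Total expected counts ranged from 29018106 to 35852646 in H1p43, from 23680503 to 30628645 in H1p16 and from 15780078 to 16583048 in Lane 4. Lane 3 held 4028607 to 4918577, Lane 2 held 2005736 to 2739084 and Lane 1 held 1040671 to 1539277. All 9 pluripotency markers checked, among them POU5F1, NANOG and SOX2, were above 1 TPM in every group. Their summed level did not overlap between 3 groups, with 7341 to 7378 TPM in H1p43, 8825 to 9100 TPM in H1p16 and 11807 to 12674 TPM in Lane 4. Lanes 3, 2 and 1 overlapped Lane 4, at 11718 to 12827, 11684 to 12834 and 11528.5 to 12838 TPM. A neuroectoderm list of 6 genes, 3 of them under 1 TPM on average, summed to 151.5 to 153.96 TPM in H1p43, 162.9 to 166.95 TPM in H1p16 and 210 to 262 TPM in Lane 4. All 8 mesendoderm markers averaged under 1 TPM in every group, and of 7 fibroblast markers 3 averaged under 1 TPM, 2 of them at 0 throughout. The fibroblast list summed to 489 to 503 TPM in H1p43, 559 to 594 TPM in H1p16 and 381 to 417 TPM in Lane 4. Here too 1 gene made up most of each sum. The highest gene averaged 387, 495 and 252 TPM in H1p43, H1p16 and Lane 4, and the median gene 12.5, 6.67 and 3.94 TPM. The part of these lists in the results was not tested.

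A ribosome holds 1 copy of nearly every ribosomal protein, assembled on ribosomal RNA in the nucleolus before the subunits leave for the cytoplasm. Messenger RNAs of these proteins are short, abundant and stable, and many begin with a run of pyrimidines, the 5′ terminal oligopyrimidine (TOP) motif, through which growth signals by way of mTOR and LARP1 set their translation. Pluripotent stem cells are known for high expression of ribosome assembly factors and comparatively low protein synthesis per cell. Paralogs can take the place of their counterpart in the ribosome, and several are restricted to particular tissues.

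The annotated starts show how core members and paralogs differ in the TOP motif. Each sequence runs from 30 bases before to 20 bases after the annotated start (RefSeq, GRCh38.p14), and capitals mark the uninterrupted pyrimidines from the start base on, or the start base alone where no TOP start was found.
RPL39, chrX:119791611-119791660, minus strand: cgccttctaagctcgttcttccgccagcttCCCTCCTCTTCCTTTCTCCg
RPL26, chr17:8383174-8383223, minus strand: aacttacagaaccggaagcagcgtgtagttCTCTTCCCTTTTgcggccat
RPL26L1, chr5:172958699-172958748, plus strand: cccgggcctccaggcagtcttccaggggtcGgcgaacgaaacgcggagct
RPL36A, chrX:101390981-101391030, plus strand: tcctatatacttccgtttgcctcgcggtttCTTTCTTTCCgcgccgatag
RPL36AL, chr14:49620607-49620656, minus strand: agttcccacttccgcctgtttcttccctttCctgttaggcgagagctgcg
RPS27, chr1:153990732-153990781, plus strand: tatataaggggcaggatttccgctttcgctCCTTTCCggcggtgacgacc
RPS27L, chr15:63157458-63157507, minus strand: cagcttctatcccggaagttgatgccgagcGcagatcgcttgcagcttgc
RPL22, chr1:6199576-6199625, minus strand: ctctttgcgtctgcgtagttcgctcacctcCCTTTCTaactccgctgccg
RPL22L1, chr3:170870176-170870225, minus strand: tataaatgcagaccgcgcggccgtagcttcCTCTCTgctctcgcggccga
RPL7L1, chr6:42879586-42879635, plus strand: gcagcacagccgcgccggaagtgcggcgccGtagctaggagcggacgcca

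A TOP start was counted where the annotated start was C and each of the next 4 bases was C or T, on the strand of the gene. Of 68 members in the promoter table, 47 had such a start (69.1%), against 1404 of all 27305 genes (5.14%). Among core members it was 46 of 62 (74.2%), and among paralogs 1 of 6, RPL22L1. RPL36AL, RPL26L1, RPS27L and RPL7L1 had none at the listed start, although their counterparts RPL36A, RPL26 and RPS27 did. A second listed start of RPL26L1, whose sequence is not shown, had none either. Annotated starts can lie some bases from the used one, so a missing match says only that these letters are not at that position.

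**Figure D1:**
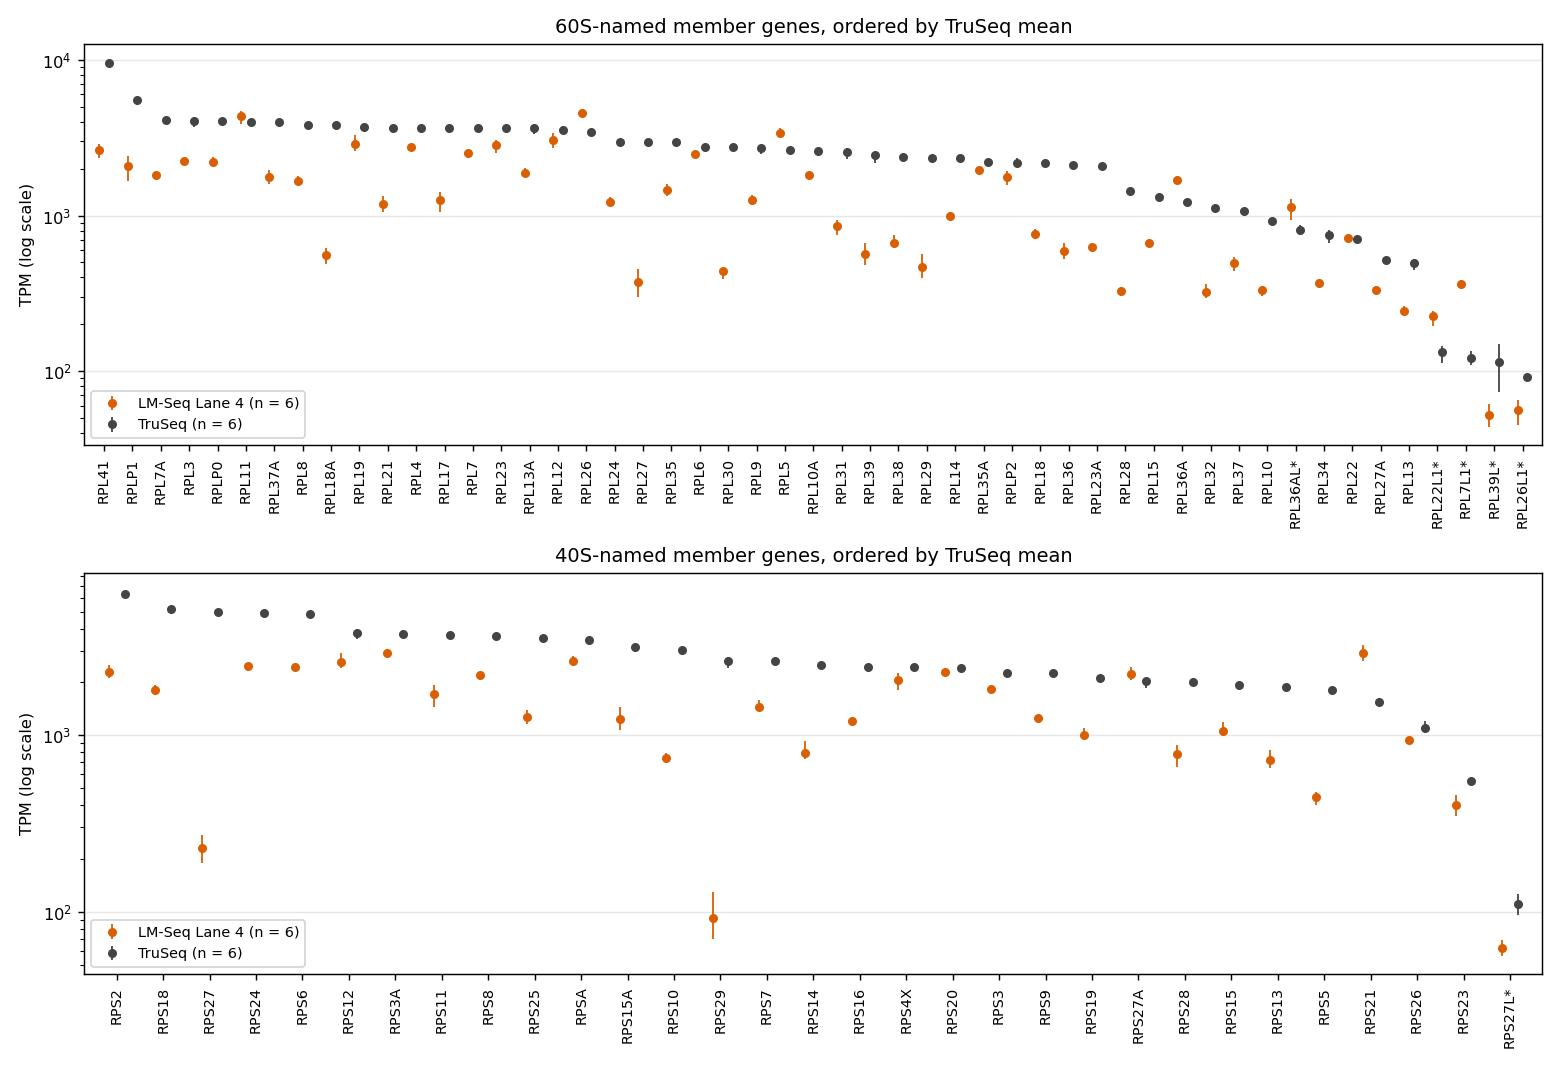
Mean TPM of each member (log axis) in LM-Seq Lane 4 and in the 6 TruSeq libraries, with bars from the lowest to the highest library, for 60S-named genes (top) and 40S-named genes (bottom). Asterisks mark paralogs, and not every member is drawn (RPL3L and RPL10L, near 0, are left out). Levels in TruSeq lie mostly within 2-fold of the core median, while in Lane 4 RPS29 and RPS27, at means of 91.9 and 231 TPM, lie far below the core median of 1258 TPM.

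Levels in TruSeq set the scale for what follows. The highest member was RPL41, which encodes the shortest ribosomal protein, at 9448, 9492 and 9261 TPM in H1p43 and 9528, 9655 and 9560 TPM in H1p16. RPS2, RPLP1, RPS18 and RPS27 came next, with TruSeq means of 6332, 5487, 5190 and 5014 TPM. The lowest core member was RPL13 at 494.6 ± 30.04 TPM (SD, n = 6), a gene named here after its values were seen. The highest core member stood 19.2-fold above the lowest, and 64 of 77 core members lay within 2-fold of their median of 2631 TPM. Over the core members, levels in H1p43 and H1p16 had a Spearman rho of 0.989 across genes, which are not independent replicates.

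Several paralogs lay far below the core median. RPL22L1, RPL7L1, RPL39L, RPS27L and RPL26L1 averaged 132.4, 121.4, 113.8, 110.99 and 91.2 TPM in TruSeq. RPL3L, which replaces RPL3 in heart and skeletal muscle, averaged 0.640 TPM. RPL10L, a testis-expressed copy of RPL10 made by retrotransposition, was listed at 0 in 5 of the 6 TruSeq libraries and at 0.09 TPM in the other.

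Within the TruSeq protocol, H1p43 was compared with H1p16. RPL39L, which in mice takes the place of Rpl39 in male germ cells, was called higher. It stood at 150.3, 148.2 and 149.3 TPM in H1p43 and at 73.7, 79.6 and 81.6 TPM in H1p16, a log2 fold change of 0.82 ± 0.04 (SE; adjusted p = 1.3e-11, edgeR's quasi-likelihood test). The groups did not overlap. Its counterpart RPL39, a small protein of the exit tunnel, had overlapping values of 2502, 2563 and 2563 TPM in H1p43 and 2188, 2319 and 2529 TPM in H1p16. RPL39 did not pass the test with TMM, with a log2 fold change of 0.01 ± 0.04, but edgeR called it higher with library totals (0.13, adjusted p = 0.0038), as did limma on the TPM scale (0.12) and edgeR without H1p16 replicate 3 (0.06).

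Other paralogs were called in both directions. RPL7L1, a nucleolar protein of pre-60S assembly, fell by 0.35 on the log2 scale (SE 0.03), with 108.98, 113.5 and 111.7 TPM in H1p43 against 130.9, 128.95 and 134.2 TPM in H1p16. RPL36AL, an intronless copy of RPL36A, stood at 748, 760 and 763 TPM in H1p43 and 834, 866 and 862 TPM in H1p16, and fell by 0.28 (SE 0.03). In both genes every H1p43 library was below every H1p16 library. RPL26L1, which differs from RPL26 in a few residues, had 88.2, 87.2 and 87.3 TPM in H1p43 and 90.7, 96.1 and 97.6 TPM in H1p16, a fall of 0.23 (SE 0.04). With library totals the falls of RPL7L1, RPL36AL and RPL26L1 were smaller, at -0.23, -0.16 and -0.10, and were still called.

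RPL22L1, whose mouse ortholog is held down by Rpl22, rose by 0.13 ± 0.04, with 139.2, 145.6 and 145.6 TPM in H1p43 and 113.7, 122.5 and 127.5 TPM in H1p16. Without H1p16 replicate 1 its value was 0.08, and with library totals 0.25, both past the threshold. RPS27L, a target of p53, was called at 0.11 ± 0.05 with an adjusted p of 0.044 by edgeR. The call was lost in edgeR with RLE factors (adjusted p = 0.064) and with TMM without members (adjusted p = 0.051), in DESeq2 (adjusted p = 0.090), and without H1p16 replicate 1 (0.05), H1p16 replicate 2 (0.10), H1p43 replicate 1 (0.12) or H1p43 replicate 2 (0.07). With library totals (0.23) and with limma on the TPM scale (0.22), RPS27L was called higher. RPL3L rose by 1.61 ± 0.35 but stayed at 1.27, 0.650 and 1.01 TPM in H1p43 and at 0.350, 0.270 and 0.290 TPM in H1p16. RPL3L thus stayed near 0 in both groups, with no overlap between them.

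Over all members, 48 of 85 that passed the low-count filter were called lower in H1p43 (56.5%) and 7 higher (8.24%), where 35.4% of all 14574 genes tested were called lower and 36.4% higher, 71.8% in all. That direction depended on the scaling. With library totals in place of TMM factors 4 members were lower and 50 higher, where 3474 of 14574 genes were lower and 7101 higher. With limma on log2(TPM + 1) 9 of 84 members were lower and 38 higher, where 3423 of 13029 genes were lower and 6132 higher. All genes shifted with the scaling, and their median log2 fold change was 0.01 with TMM, 0.14 with library totals and 0.09 on the TPM scale. Relative to that median the members' median was -0.08 with TMM, -0.08 with library totals and -0.05 on the TPM scale. Likewise, 74, 74 and 61 members lay under the median of all genes, the last out of 84. Of the members called with TMM, only 2 reached a 1.5-fold change, RPL39L and RPL3L, both higher (of all genes, 14.2% higher and 6.07% lower).

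By subunit, 29 of 46 core 60S genes were called lower in H1p43 and 3 higher with TMM, and 16 of 31 core 40S genes lower and 0 higher, with medians of -0.07 and -0.06. With library totals the members as a whole had the opposite split, as given above. RPS26, which lines the exit of the messenger RNA channel, fell by 0.27 (SE 0.03), with 1040, 1028 and 1043 TPM in H1p43 and 1208, 1169 and 1100 TPM in H1p16. RPL36A had 1211, 1199 and 1210 TPM in H1p43 and 1222, 1247 and 1273 TPM in H1p16, a fall of 0.16 (SE 0.02) that did not pass the test with library totals. RPL3, which lies by the peptidyl transferase centre, had 4310, 4309 and 4284 TPM in H1p43 and 3708, 3739 and 3777 TPM in H1p16, a log2 fold change of 0.09 ± 0.02. RPS26 and RPL3 thus had groups that did not overlap, in opposite directions, and were called with library totals too, at -0.15 and 0.21.

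The stalk proteins, which recruit elongation factors, were unequal. RPLP0, the base of the stalk, had a log2 fold change of -0.09 ± 0.02 with TMM and 0.03 with library totals. RPLP2 had one of 0.05 ± 0.02 with TMM, a call lost by leaving out any library but H1p43 replicate 3. It was also lost in DESeq2, with RLE factors, with TMM without members and with no low-count filter. RPLP2 was called higher with library totals (0.17) and with limma on the TPM scale (0.16). RPLP1 did not pass the test with TMM (-0.01) but was called higher with library totals (0.11) and with limma on the TPM scale (0.096). RPLP2 stood at 2301, 2329 and 2263 TPM in H1p43 and 2048, 2085 and 2044 TPM in H1p16, and RPLP1 at 5686, 5710 and 5609 TPM in H1p43 and 5407, 5371 and 5140 TPM in H1p16. The sum of RPLP1 and RPLP2 over RPLP0 was 1.97 ± 0.02 in H1p43 and 1.84 ± 0.05 in H1p16 (SD, n = 3 each). RPL5 and RPL11, which with 5S ribosomal RNA bind MDM2, had log2 fold changes of -0.07 ± 0.02 and -0.08 ± 0.02 with TMM but 0.06 and 0.04 with library totals. RPS6, the substrate of S6 kinases, fell by 0.16 (SE 0.02), with 4790, 4832 and 4774 TPM in H1p43 and 4891, 4984 and 4993 TPM in H1p16, but with library totals it was at -0.03 and the call was lost.

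RPSA, the laminin receptor homologue of the small subunit, had a log2 fold change of -0.09 ± 0.02 with TMM and 0.03 with library totals. RPS27A, made as a fusion with ubiquitin, did not pass the test with TMM (-0.00 ± 0.03 on the log2 scale), was called higher with library totals (0.12) and on the TPM scale (0.11), and was called lower without H1p16 replicate 1 (-0.05). RPS29, a zinc-binding protein of the 40S head, did not pass the test with TMM but was called higher with library totals (0.13) and without H1p16 replicate 3 (0.06), with 2633, 2766 and 2767 TPM in H1p43 and 2390, 2509 and 2722 TPM in H1p16. Summed over members, the share of all TPM was 22.84%, 22.99% and 22.85% in the H1p43 libraries and 21.8%, 22.2% and 22.4% in the H1p16 libraries. The 40S sum over the 60S sum was 0.700 ± 0.002 in H1p43 and 0.705 ± 0.006 in H1p16. Bulk libraries do not tell fewer expressing cells from less RNA per cell.

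Genes of ribosome assembly were mostly lower in H1p43. In a list of ribosome biogenesis factors, 69 of 77 genes tested were lower in H1p43 and 1 was higher with TMM, with a median log2 fold change of -0.41, against 0.01 over all genes. With library totals 60 were lower and 7 higher (median -0.29). The 3 largest falls, named after their values were seen, were in UBTF (-1.05 ± 0.02), an activator of ribosomal RNA transcription, UTP14A (-0.98 ± 0.04) of the small subunit processome and POLR1A (-0.80 ± 0.03), the largest subunit of RNA polymerase I. Of 20 regulators listed, 10 were lower and 4 higher with TMM, while 6 were lower and 8 higher with library totals. Picked from these 20 regulators, LARP1, which binds TOP messenger RNAs, was at -0.51 ± 0.02 and MYCN at -0.68 ± 0.03 with TMM. The 4 called higher are not named here. Of 17 other TOP messenger RNAs, 7 were lower and 3 higher (median -0.04) with TMM, but 3 lower and 12 higher with library totals. Over all 14574 genes, library totals called 3474 lower and 7101 higher.

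**Figure D2:**
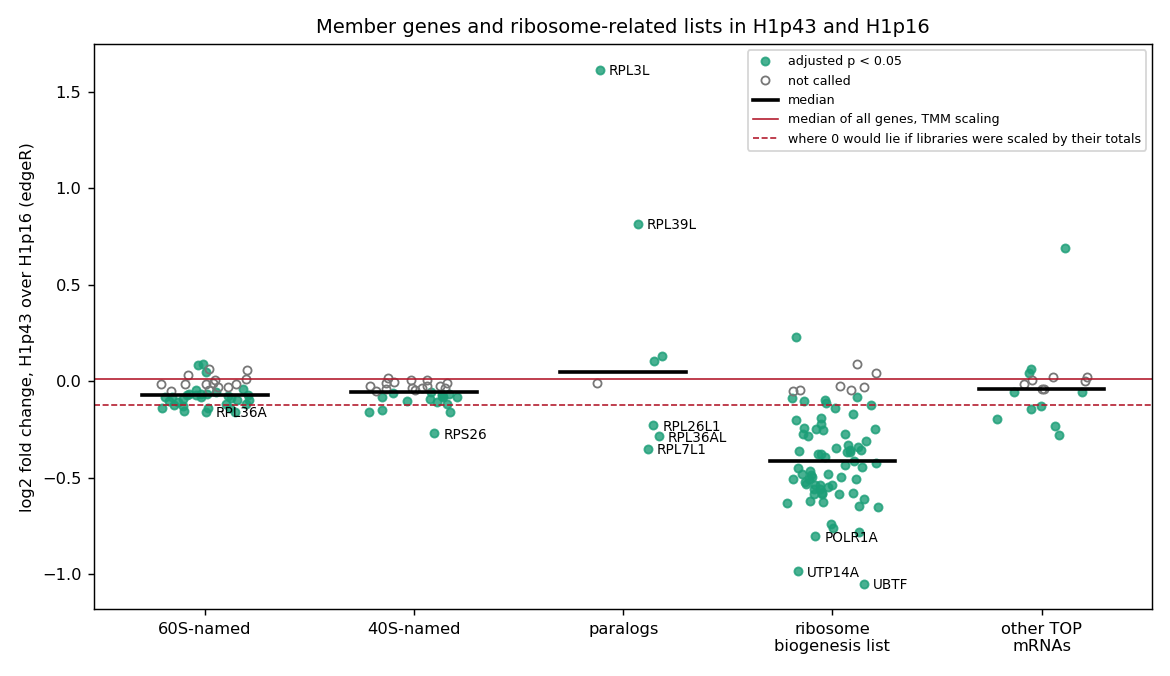
Log2 fold change of H1p43 over H1p16 for core members by subunit, paralogs, the ribosome biogenesis list and other TOP messenger RNAs, each point a gene and each black bar a median. The red line marks the median of all genes with TMM scaling and the dashed line the place 0 would take with library totals, which moves most core members from under to over 0. The medians with TMM are -0.41 in the biogenesis list and -0.07 and -0.06 in the core members, and RPL39L and RPL3L lie above all core members.

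The comparison of LM-Seq Lane 4 with TruSeq asked how the 2 protocols measured these genes. Protocol, sequencing lane, samples per lane and depth differ together between the 2 sets of libraries and cannot be told apart. The LM-Seq labels name neither p43 nor p16, so a difference between the cells cannot be told apart either. Members were lower in Lane 4 as a group, but by unequal amounts, and a few were higher. RPS29 stood at 69.7 to 128.6 TPM (median 92.6) in Lane 4 and at 2390 to 2767 TPM (median 2677) in TruSeq, a log2 fold change of -4.66 ± 0.10. RPS27, a zinc-finger protein of the 40S subunit, stood at 189 to 270 TPM (median 240) in Lane 4 and 4703 to 5149 TPM (median 5099) in TruSeq, a log2 fold change of -4.41 ± 0.08. Neither gene overlapped between protocols.

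RPL27, of the 60S subunit, followed at -2.96 ± 0.09, with 300 to 451 TPM (median 364) in Lane 4 and 2912 to 3030 TPM (median 3007) in TruSeq. RPL41 was at -1.79 ± 0.06, with 2329 to 2879 TPM (median 2659) in Lane 4 and 9261 to 9655 TPM (median 9510) in TruSeq. RPL26 took its place as the highest member in Lane 4.

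Higher levels in Lane 4 were led by RPL7L1, with 339 to 383 TPM (median 359) in Lane 4 and 108.98 to 134.2 TPM (median 121.2) in TruSeq, a log2 fold change of 1.60 ± 0.08. RPS21, a small protein of the 40S subunit, stood at 2647 to 3243 TPM (median 2885) in Lane 4 and 1473 to 1624 TPM (median 1549) in TruSeq, at 0.95 ± 0.05. RPL22L1 had 196 to 243 TPM (median 232) in Lane 4 and 113.7 to 145.6 TPM (median 133.4) in TruSeq, at 0.82 ± 0.06. For these 3 genes every Lane 4 library exceeded every TruSeq library.

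The pair RPL36AL and RPL36A was higher, at 0.53 ± 0.09 and 0.51 ± 0.05. RPL26 was at 0.44 ± 0.04, with 4388 to 4721 TPM (median 4552) in Lane 4 and 3306 to 3510 TPM (median 3454) in TruSeq. RPL5 was at 0.41 ± 0.05, with 3186 to 3646 TPM (median 3388) in Lane 4 and 2532 to 2691 TPM (median 2660) in TruSeq. RPS27A and RPL11 were called higher by 0.21 ± 0.05 and 0.15 ± 0.05 with TMM. With library totals RPS27A was at -0.10 and not called, while RPL11 was called lower at -0.15. The higher RPL11 call was also lost with only the H1p16 libraries (0.10). RPL6, RPS20 and RPL22, named as the members that did not pass the test with TMM, were at -0.08 ± 0.04, -0.04 ± 0.04 and 0.06 ± 0.04. RPL22 was called lower with library totals (-0.24) and higher with only the H1p43 libraries (0.11).

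In all, 72 of 84 members tested were lower in Lane 4 (85.7%) and 9 higher (10.7%), where 36.9% of 13827 genes were lower and 34.3% higher, 71.3% in all. Library totals gave 76 members lower and 7 higher, where 7020 of 13827 genes were lower and 3154 higher. The median over all genes was then -0.37, against -0.06 with TMM. Relative to the median of all genes, the members' median was -0.92 under both scalings. A change of at least 1.5-fold held for 57 members lower (26.5% of all genes) and 3 higher (20.9% of all genes). By subunit, 40 of 46 core 60S genes were lower and 4 higher (median -1.08), and 28 of 31 core 40S genes were lower and 2 higher (median -0.97). Of the 7 paralogs tested, 4 were lower and 3 higher. With Lanes 1, 2 and 3 in place of Lane 4, 74 members were lower each time and 8, 8 and 9 higher. Of all genes, 4637 of 10814, 4974 of 11735 and 5164 of 12475 were then lower. Those higher were 4313, 4542 and 4691.

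Members with defined roles were lower to unlike extents. The stalk genes RPLP0, RPLP1 and RPLP2 were at -0.82 ± 0.04, -1.36 ± 0.07 and -0.26 ± 0.05, and the sum of RPLP1 and RPLP2 over RPLP0 was 1.74 ± 0.19 (SD) in the 6 Lane 4 libraries and 1.91 ± 0.08 in the 6 TruSeq libraries. RPS6 was at -0.97 ± 0.05, RPSA at -0.35 ± 0.04 and RPL3 at -0.81 ± 0.04. RPL39, at 483 to 668 TPM (median 542) in Lane 4 and 2188 to 2563 TPM (median 2516) in TruSeq, was at -2.08 ± 0.07, and its paralog RPL39L at -1.07 ± 0.17. FAU and GNB2L1 were also lower, at -1.18 and -1.62. Other lists had other splits: 50 of 77 biogenesis genes were higher and 12 lower (median 0.44; 38 higher and 23 lower with library totals), and 10 of 17 other TOP messenger RNAs were higher and 6 lower (6 higher and 7 lower with library totals). Of 20 regulators, 6 were higher and 8 lower (4 higher and 13 lower with library totals).

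The spread among core members widened in Lane 4. Their SD on the log2 scale was 1.17 in Lane 4 and 0.82 in TruSeq, and the highest stood 49.5-fold above the lowest in Lane 4, against 19.2-fold in TruSeq. Within 2-fold of the group's own median lay 45 of 77 core members in Lane 4 and 64 in TruSeq. Over core members, Spearman's rho between Lane 4 and TruSeq was 0.562, while between Lane 4 and Lane 1 it was 0.998. Summed over members, the share of all TPM was 11.8% ± 0.23 (SD) over the 6 Lane 4 libraries and 22.5% ± 0.44 over the 6 TruSeq libraries. The 40S sum over the 60S sum was 0.665 ± 0.010 in Lane 4 and 0.702 ± 0.005 in TruSeq.

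Most members have short transcripts, and fold changes between protocols went with length. Effective length, the expected count divided by TPM and scaled to the median gene of a library, had a median of 0.226 among the 84 members tested. Across members, Spearman's rho between fold change and relative length was 0.386, and across 13711 other genes it was 0.298. The shorter 42 members had a median log2 fold change of -1.33 and the longer 42 of -0.81. The 216 other genes as short as the shorter members had a median of -0.85, against -0.05 in the 13495 longer ones. Length did not order all members: RPS21 and RPS29, both among the shortest, lay at opposite ends. Between H1p43 and H1p16 rho was -0.04 across members.

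**Figure D3:**
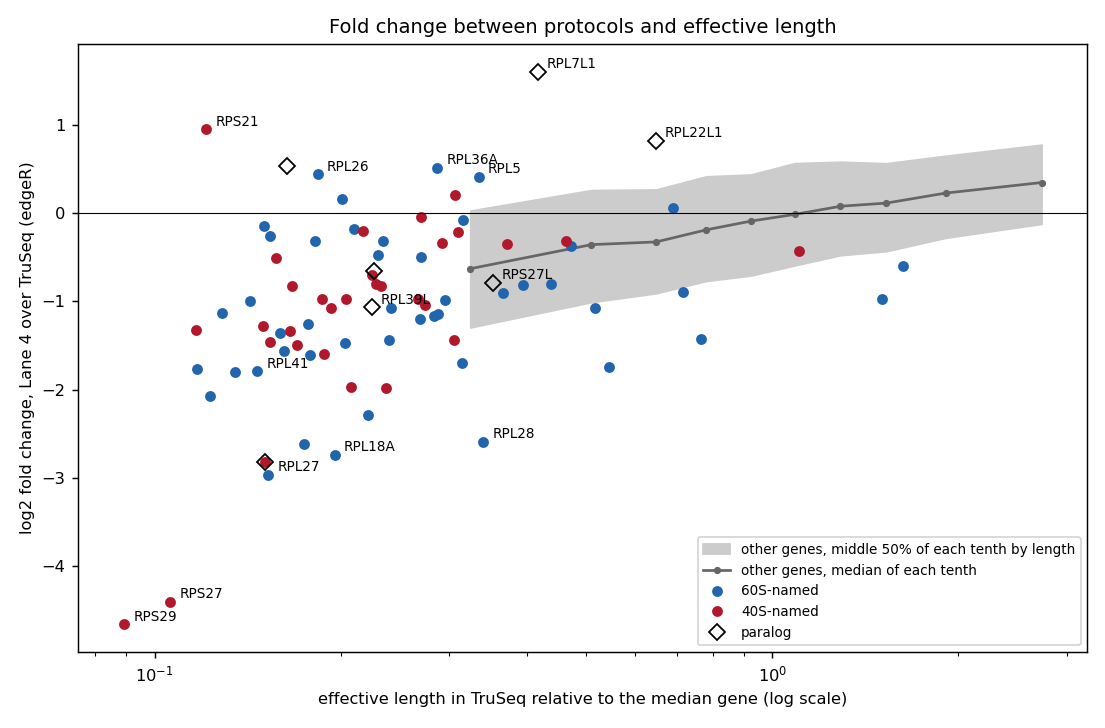
Log2 fold change of Lane 4 over TruSeq against effective length relative to the median gene (log axis), for core members by subunit and paralogs, with the median and middle 50% of other genes in 10 bins of length. Other genes reach a median of -0.63 in the shortest bin, and 57 members lie at least 1.5-fold lower in Lane 4, with RPS29 at -4.66 and RPS27 at -4.41.

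Each paralog was also set against its counterpart as a share of the summed TPM of the pair. RPL39L made up 5.67%, 5.47% and 5.50% of its pair in H1p43 and 3.26%, 3.32% and 3.13% in H1p16. RPL22L1 made up 16.5%, 16.9% and 16.8% in H1p43 and 14.2%, 14.8% and 15.2% in H1p16. RPS27L made up 2.27% ± 0.10 in H1p43 and 2.05% ± 0.06 in H1p16. All 3 shares were higher in H1p43 in every library.

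The shares of RPL7L1, RPL36AL and RPL26L1 were lower in H1p43, at 2.94% ± 0.06, 38.5% ± 0.33 and 2.45% ± 0.02, against 3.52% ± 0.05, 40.6% ± 0.31 and 2.72% ± 0.04 in H1p16 (SD, n = 3 each). Between protocols the shares moved further. RPS27L took 18.01% to 24.5% of its pair in Lane 4 and 1.99% to 2.38% in TruSeq, although its own level was lower in Lane 4 (log2 fold change -0.79 ± 0.07). RPL7L1 took 11.7% to 13.7% in Lane 4 and 2.90% to 3.57% in TruSeq.

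RPL39L took 8.57% ± 1.36 in Lane 4 and 4.39% ± 1.27 in TruSeq, and RPL22L1 24.01% ± 1.24 in Lane 4 and 15.7% ± 1.15 in TruSeq, each with SD over 6 libraries. RPL26L1 took 1.22% ± 0.14 in Lane 4 and 2.58% ± 0.15 in TruSeq, the reverse direction. RPL36AL overlapped, at 37.04% to 41.96% in Lane 4 and 38.17% to 40.98% in TruSeq. On expected counts, which are not divided by length, the RPL39L share was 9.68% in H1p43 and 5.75% in H1p16, and the RPS27L share was 47.5% in Lane 4 and 6.84% in TruSeq. No test was made of these ratios, and reads shared by near-identical copies make the division within a pair uncertain.

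**Figure D4:**
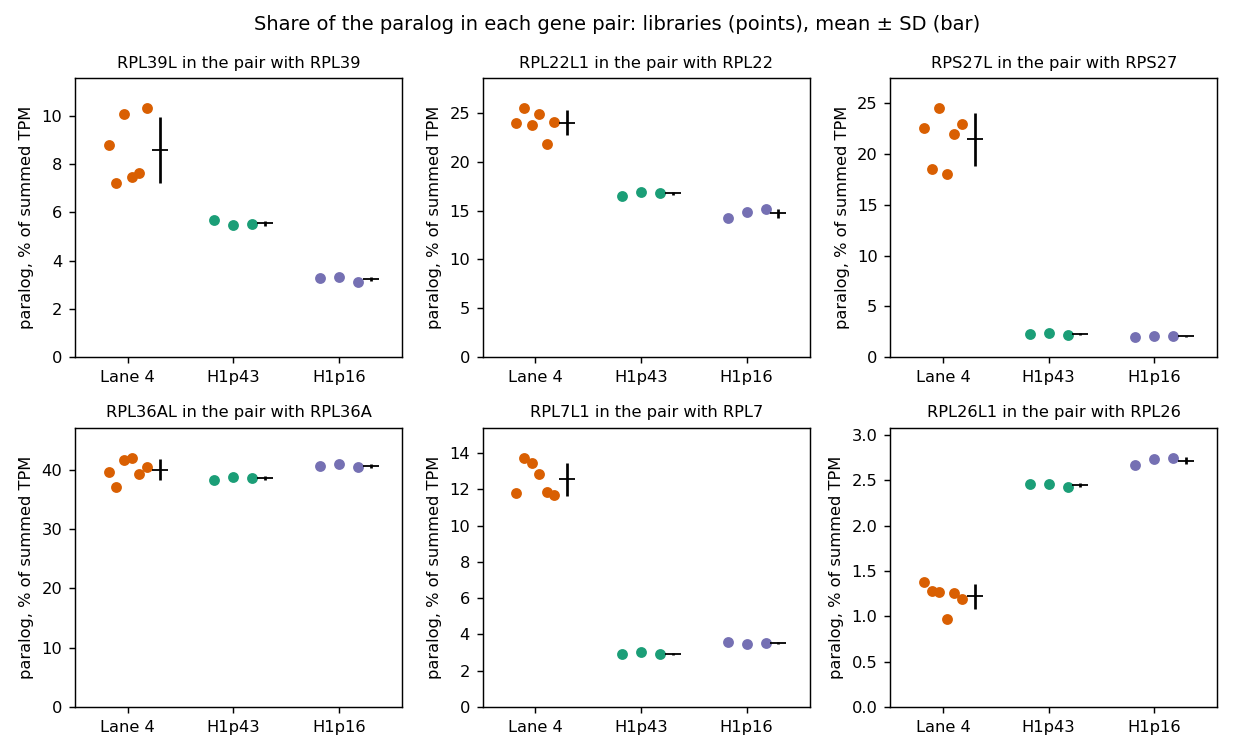
Share of the paralog in the summed TPM of 6 gene pairs (%), for Lane 4, H1p43 and H1p16, with points for libraries and bars for mean ± SD. RPL39L stands at 5.55% in H1p43 and 3.24% in H1p16, and RPS27L and RPL7L1 take a far larger share in Lane 4 than in either TruSeq group.

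The LM-Seq lanes differ in the number of samples pooled and so in depth. No member was called between Lane 2 and Lane 1, Lane 3 and Lane 1 or Lane 4 and Lane 1 over shared library numbers by edgeR without a block (0, 3 and 0 members at an unadjusted p under 0.05), where 0%, 0% and 0.0161% of all genes were called. The lowest and highest log2 fold changes were -0.05 (RPL41) and 0.08 (RPL26L1) in Lane 2, -0.06 (RPL41) and 0.11 (RPS29) in Lane 3, and -0.28 (RPS29) and 0.26 (RPL39L) in Lane 4. Same-numbered libraries deviated together, and with the number as a block RPL41 was lower in Lane 2 (-0.05 ± 0.01), RPS9 and RPL7A were higher in Lane 3 (0.08 ± 0.02 and 0.05 ± 0.01) and 0 members were called in Lane 4. Of all genes, the block called 0.257% in Lane 2 (0.0198% higher, 0.237% lower), 0.405% in Lane 3 (0.11% higher, 0.294% lower) and 0.105% in Lane 4. At an unadjusted p under 0.05, edgeR with the block had 6, 25 and 5 of 84 members in Lanes 2, 3 and 4. Of all genes it then had 644 of 10120, 866 of 10871 and 622 of 12419. With counts thinned to equal depth as well as the block, 0 members were called in any of these lanes. At an unadjusted p under 0.05 edgeR then had 8, 9 and 8 members. Of all genes it had 531 of 9199, 487 of 9249 and 312 of 9398. RPS9 and RPL7A are named after their values were seen.

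Member levels also differed between library numbers in a way that recurred. For each gene, log2(TPM + 1) in Lane 1 was correlated with that in Lane 2 over the 48 shared numbers and tested by 1-sided permutation of the numbers (100000 resamples, smallest possible p 1e-05). All 84 members averaging 1 TPM or more in both lanes passed at an adjusted p under 0.05, where 76.5% of 12494 genes did, and 96.1% of 1671 other genes of at least 100 TPM. With Lane 3 in place of Lane 2, over 24 numbers, 79 of the 84 passed, against 59.4% of all genes. Over members the median Pearson r was 0.720, against 0.379 over all genes and 0.599 over those abundant genes. The spread across Lane 1 was of similar size in members and other abundant genes, with a median SD of 0.133 and 0.140 on the log2 scale.

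The highest correlations were in RPL12 (r = 0.932, rho = 0.920, r = 0.921 without the 2 farthest libraries) and RPS23 (r = 0.922). RPL11, RPL19 and RPLP0 followed, each with r of at least 0.902. RPL12 ranged from 2324 to 3764 TPM over the 95 Lane 1 libraries, with a median of 3102 TPM. Weakest were RPL26L1 (r = 0.285, rho = 0.245, r = 0.156 without the 2 farthest libraries), RPS29 (r = 0.335), RPS27L (r = 0.372), RPL28 (r = 0.411) and RPL39L (r = 0.503). Of these 5, all but RPL28 averaged under 100 TPM in Lane 1, and RPL28 averaged 343 TPM. The Spearman test did not call RPL26L1 (adjusted p = 0.060, permutation test).

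The summed member share behaved in the same way. In the 48 numbers it ranged from 11.3% to 12.8% of TPM in Lane 2 and from 11.2% to 12.8% in Lane 1, with r = 0.981 and rho = 0.959, and r = 0.976 without the 2 farthest libraries. Within a number the 2 lanes differed by at most 0.183 percentage points. Across the 95 Lane 1 libraries the share had r = 0.02 with the library total and r = 0.05 with the library number. The 40S over 60S ratio recurred less closely (r = 0.794), as did the RPL39L, RPL22L1 and RPS27L shares of their pairs (r = 0.474, 0.579 and 0.502). These are values over a sum of members, and no test was made of them.

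Members covaried weakly as a set across the 95 Lane 1 libraries. The median pairwise Pearson r among 83 members was 0.102, against 0.009 among 1668 other genes of at least 100 TPM and -0.016 between the 2 sets. Of 3403 pairs, 3.50% exceeded 0.5 (2.14% among other genes) and 15 lay under -0.5. On log2 CPM the median was 0.169, with 6.94% of pairs over 0.5 and 7 pairs under -0.5. TPM values in a library share its total, so these correlations are not independent of one another. The first principal component held 19.2% of the variance and split the members: RPL39, RPLP1, RPS4X, RPL29 and RPL10 lay at one end and RPL36AL, RPL19, RPS3, RPL5 and RPL3 at the other. The sign of each component was set so that RPLP1 loaded positive, so the sign of RPLP1 itself tells nothing. In Lane 2, RPL39, RPS4X, RPL29 and RPL10 were also positive (0.31 to 0.66). RPS3 (0.09) and RPL5 (0.02) changed sign there, and RPL3 was at -0.06. Loadings in the 47 Lane 1 numbers not in Lane 2 and loadings in Lane 2 had r = 0.46 over genes.

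Pairs at the extremes, named after their values were seen, were RPL12 with RPS4X at r = 0.75 and RPL19 with RPL29 at -0.65. In Lane 2 these pairs stood at 0.62 and -0.54. In the 47 numbers found in Lane 1 and not in Lane 2, they stood at 0.84 and -0.70. The pairs were chosen over all 95 Lane 1 libraries, which include these 47 numbers. Lane 2 holds the remaining numbers, so neither set of values is independent of the choice. Over all pairs, r in those 47 numbers and r in Lane 2, which share no library number, correlated at 0.54. Over the 48 shared numbers, r in Lane 1 and r in Lane 2 correlated at 0.84. Loadings on the component had a Pearson r of 0.09 with relative effective length across members. With the log2 fold change of Lane 4 over TruSeq their r was -0.40, and what links the 2 was not tested. The component itself had r = 0.47 with the summed share and r = 0.11 with the library total across libraries.

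**Figure D5:**
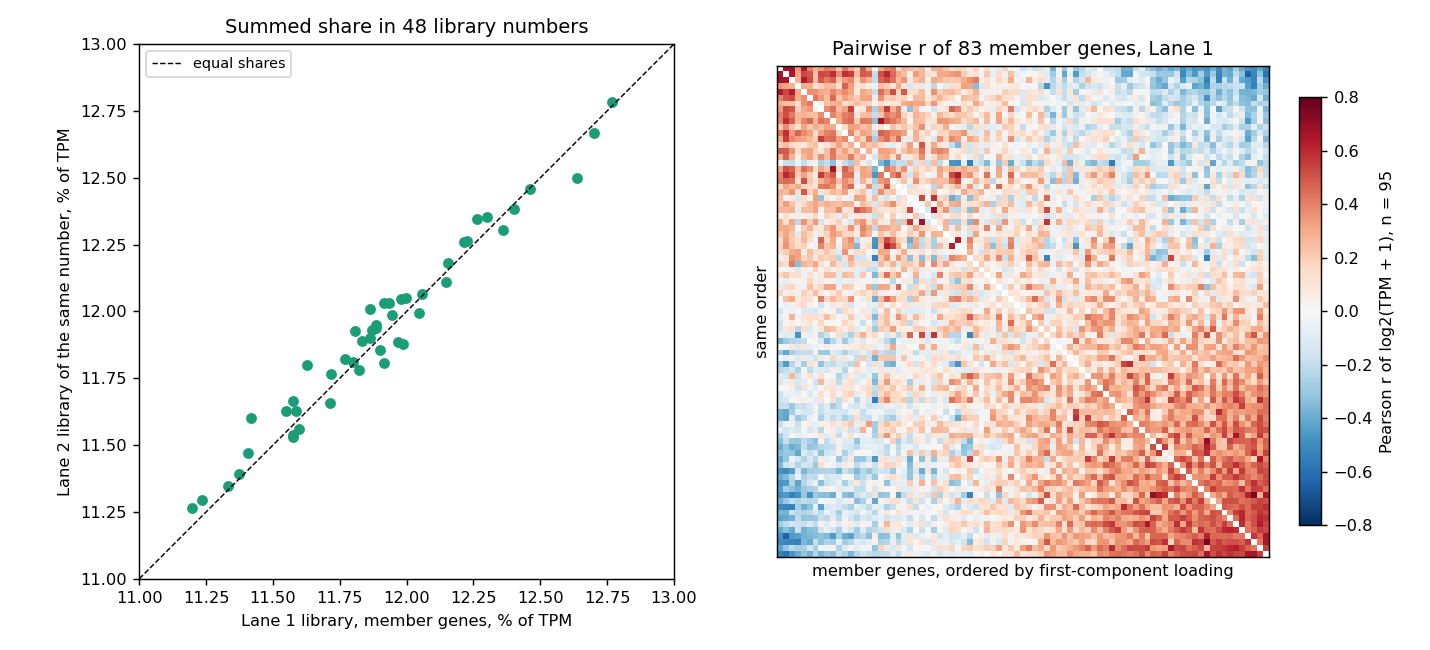
Left, summed member share (% of TPM) in 48 library numbers, Lane 2 (vertical) against Lane 1 (horizontal), with the line of equal shares, near which all points lie (r = 0.981). Right, pairwise Pearson r of 83 members over 95 Lane 1 libraries in the order of their first-component loading, with positive values (red) within each end and negative values (blue) between the ends.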

How the data were processed

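RNA-seq libraries were sequenced on an Illumina HiSeq2500, per the labels' protocols. The submitters' processing notes name RSEM 1.2.3, Bowtie 0.12.8, CASAVA 1.8.2 and the human build hg19. For each gene the authors deposited an expected count and a TPM value, which scales it by effective length and library total. Use of strand in counting is not stated, so overlapping and antisense genes are uncertain, as are near-identical paralogs, pseudogene copies and 3 read-through models.

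Members and gene lists were chosen with earlier results of these data known. Expected counts were rounded and fitted over all genes with edgeR 4.0.16 in R 4.3.3 (filterByExpr, TMM, quasi-likelihood test), with calls where the Benjamini-Hochberg adjusted p was under 0.05. Standard errors follow from the fold change and its F statistic. The procedure was tested on simulated data. Named genes were paralogs and counterparts, stalk genes, RPSA, RPL5, RPL11, RPS6, RPS27A, RPL41 and RPS29, the 5 largest called changes each way, the 5 highest and lowest levels in TruSeq and the 5 highest and lowest correlations between Lanes 1 and 2; some of these genes are not reported here. Correlations used log2(TPM + 1) and permutation tests in Python 3.11.15. Starts came from RefSeq promoters of GRCh38.p14, matched by symbol for 68 of 86 members.

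Alternatives were DESeq2 1.42.0, RLE factors, library totals, TMM without members, no low-count filter, limma 3.58.1 on log2 TPM, other lanes, thinning, omitted replicates and the number as a block. Same-numbered libraries of Lanes 2, 3 and 4 correlated with Lane 1 in their deviations from the lane means. The correlations were 0.168 to 0.639, 0.226 to 0.551 and 0.359 to 0.437. All 48, 24 and 6 numbers matched their own Lane 1 library best among the shared numbers. This pairing is inferred from the recurring numbers, and the labels do not state it. No 2 libraries of a group agreed within counting noise. By chi-square per degree of freedom, pairs in H1p43 (1.29 to 1.38) lay nearer to counting noise than pairs in H1p16 (1.91 to 4.08).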

Additional observations from a re-analysis of the deposited data

Results flagged for a closer look

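In 6 of 48 values tested over the 6 Lane 4 libraries, 1 library lay far from the others, with a gap to its neighbour above 0.625 of the range; chance gives about 1 such value in 20. RPL22L1 had its lowest library at 195.72 TPM, next to 227 TPM. RPL3 had its lowest library at 2159.55 TPM, next to 2248 TPM. RPL3L was at 0.88 TPM in 1 library and at most 0.27 TPM in the others, so its share of the pair with RPL3 was 0.0391%, next to 0.0120%. RPL10L was at 0.79 TPM in 1 library, 0.260% of its pair with RPL10, and at 0 in the other 5. With 5 libraries at 0, any nonzero library would stand apart, so the RPL10L values carry no weight; RPL10L and RPL3L each count as 2 of the 6, by level and by share.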

How the results depend on the processing

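Between H1p43 and H1p16 the direction of the members followed the scaling. Counts of members higher in H1p43 were 50 with library totals, 38 with limma on log2(TPM + 0.1) or log2(TPM + 1) and 2 at a 1.5-fold minimum; counts lower were 4, 9, 9 and 0. Calls over all 14574 genes moved too, with 7101 higher and 3474 lower under library totals. DESeq2, RLE factors and TMM without members kept the main direction. Leaving out 1 library gave 5 to 10 higher and 40 to 61 lower. The replicate block gave 9 higher and 52 lower, but the TruSeq numbers did not pair the libraries (correlations of 0.011 to 0.042, with 2 of 3 pairs matching best), so they share only a number.

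With library totals, log2 fold changes of opposite sign were RPL22 0.038, RPS27 0.087, RPL26 0.055, RPL7 0.042, RPL10 0.11, RPLP0 0.0303, RPLP1 0.11, RPSA 0.034, RPL5 0.058, RPL11 0.044, RPS27A 0.12, RPS18 0.072 and RPS2 0.0081. On the TPM scale, with either pseudocount, they were RPL22 0.025, RPS27 0.075, RPL26 0.041, RPL7 0.028, RPL10 0.095, RPLP0 0.016, RPLP1 0.096, RPSA 0.023, RPL5 0.044, RPL11 0.0304, RPS27A 0.11 and RPS18 0.059. RPL39 and RPS29 were called higher with library totals (0.13 each). Near 0, RPL39 was -0.0024 with DESeq2 and -0.0033 with RLE, RPS29 -0.00098 and -0.0016, and RPS27A 0.00029 with the block. Leaving out 1 library gave RPL39 -0.0501 to 0.059, RPS29 -0.043 to 0.055, RPL10 -0.044 to 0.0023 and RPS27A -0.048 to 0.032.

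Between Lane 4 and TruSeq, 3 members were higher at a 1.5-fold minimum. Library totals turned RPL22 (-0.24), RPL11 (-0.15) and RPS27A (-0.096), and RPL22 was -0.052, -0.043 and -0.0104 with Lanes 1, 2 and 3 in place of Lane 4. The block called 1 member lower in Lane 2 and 2 higher in Lane 3, and all libraries of both lanes called 3 lower in Lane 3.

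On expected counts the summed share was 8.10% in H1p43, 7.76% in H1p16, 3.71% in Lane 4, 7.93% in TruSeq and 3.75% in Lane 1, and the 40S over 60S ratio 0.606, 0.616, 0.604, 0.611 and 0.603. Without paralogs the share was 22.5% in H1p43 and 21.8% in H1p16. The cause of these changes was not tested. The alternative using protein length was not run. RPL3L and RPL10L were near 0 at every depth.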
